A study of Sus scrofa with 16 samples.

Results

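The newborn kidney list held 128184 consensus accessible chromatin regions (peaks) on chromosomes 1 to 18, of 133254 in the whole list and 798988 in the 8 lists of the series. Each kidney peak was placed in a class by how many of the 5 other newborn lists (heart, lung, muscle, spleen and liver) it overlapped by 1 bp or more. Class 0 thus held the peaks listed in kidney alone, with 44353 members, and class 5 the peaks listed in every newborn tissue, with 20000. Classes 1, 2, 3 and 4 held 25817, 15958, 11627 and 10429 peaks. The peaks came from ATAC-seq, in which a transposase cuts open DNA, and each list merged 2 libraries of frozen tissue. Per the labels all animals were female, domestic and crossbred, and the 6 tissues were taken on the birth day (day 0). Per the methods, which give the newborns as a day old, all 6 tissues came from the same 2 full siblings of a Berkshire and Tibetan cross, so that the lists share their animals. The animals carried no engineered allele and received no agent. Liver lists of day 28 and day 180 were used only to describe the kidney peaks further.

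The kidney filters blood in glomeruli, whose podocytes hold back protein, and recovers water and solutes along the nephron. The proximal tubule takes back most of the filtrate through solute carriers, the loop of Henle builds the salt gradient, and the distal tubule and collecting duct adjust salt, water and acid. Nephrons arise from progenitors that surround the branching ureteric bud, and in pigs new nephrons still form after birth, so that newborn kidney contains progenitors and working tubules side by side. Transcription factors such as PAX2, LHX1, SALL1 and the HOX11 group direct this process. A peak marks DNA that was open in enough nuclei to be called. In whole tissue, a site open in more cells and a site more open in each cell cannot be told apart.

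The sequences under 11 of the peaks described here show what the lists contain. Each runs from 100 bp before to 100 bp after the summit on the plus strand of Sscrofa11.1 and was read from the RefSeq genome of that build. Capitals mark letters matching the consensus searched for HNF1 (TTAATNATT), HNF4 (CAAAGTCC), TFAP2 (GCCNNNGGC), GRHL (AACCNGTT), PAX (CANGCNTGA), SIX2 (GAAACNTGA) or CTCF (CNAGGGGGC) on either strand, and a sequence without capitals holds none of them. The first set belongs to the marker genes of the kidney.
PAX2 promoter, class 0, chr14:111821133-111821333: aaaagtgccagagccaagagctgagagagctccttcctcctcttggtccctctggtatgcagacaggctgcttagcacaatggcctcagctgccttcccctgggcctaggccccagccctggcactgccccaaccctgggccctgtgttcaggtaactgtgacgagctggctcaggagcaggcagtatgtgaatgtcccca
LHX1 upstream, class 1 with liver, chr12:38383481-38383681: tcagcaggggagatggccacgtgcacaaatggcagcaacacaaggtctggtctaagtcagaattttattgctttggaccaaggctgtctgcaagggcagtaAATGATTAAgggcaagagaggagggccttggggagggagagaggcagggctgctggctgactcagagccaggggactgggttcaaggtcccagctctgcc
UMOD upstream, class 0, chr3:25470208-25470408: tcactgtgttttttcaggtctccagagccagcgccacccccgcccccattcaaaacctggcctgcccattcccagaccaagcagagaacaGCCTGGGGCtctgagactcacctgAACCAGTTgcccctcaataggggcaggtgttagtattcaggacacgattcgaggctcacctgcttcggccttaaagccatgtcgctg

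The next set holds class 0 peaks in promoters of glomerular and tubular genes. SLC17A3 had another promoter peak that was shared with other tissues.
SYNPO promoter, class 0, chr2:151571133-151571333: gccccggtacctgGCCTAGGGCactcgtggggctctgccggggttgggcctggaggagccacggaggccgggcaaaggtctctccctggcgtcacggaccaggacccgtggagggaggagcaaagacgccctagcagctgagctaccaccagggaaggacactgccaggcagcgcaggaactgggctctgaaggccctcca
SLC34A1 promoter, class 0, chr2:80563310-80563510: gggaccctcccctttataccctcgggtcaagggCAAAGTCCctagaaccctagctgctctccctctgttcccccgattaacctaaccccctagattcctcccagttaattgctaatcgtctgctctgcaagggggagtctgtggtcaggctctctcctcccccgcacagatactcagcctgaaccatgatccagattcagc
SLC17A3 promoter, class 0, chr7:20625993-20626193: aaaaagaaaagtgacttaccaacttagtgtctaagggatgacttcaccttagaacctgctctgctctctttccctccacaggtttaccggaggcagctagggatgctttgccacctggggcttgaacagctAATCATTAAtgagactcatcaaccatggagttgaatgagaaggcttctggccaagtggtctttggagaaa
SLC12A1 promoter, class 0, chr1:123571567-123571767: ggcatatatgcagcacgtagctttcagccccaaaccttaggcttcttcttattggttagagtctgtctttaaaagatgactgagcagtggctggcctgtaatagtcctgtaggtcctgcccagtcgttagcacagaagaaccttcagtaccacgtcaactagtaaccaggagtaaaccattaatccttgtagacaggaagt

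The last set holds distal class 0 peaks, namely the strongest over 50 kb from a gene start and strong ones with HNF1 letters, beside a promoter open in every tissue.
distal peak nearest to CRB2, class 0, chr1:264393548-264393748: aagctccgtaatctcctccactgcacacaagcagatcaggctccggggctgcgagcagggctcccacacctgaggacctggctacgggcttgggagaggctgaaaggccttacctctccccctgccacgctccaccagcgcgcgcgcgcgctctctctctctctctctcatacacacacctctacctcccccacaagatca
distal peak nearest to ANO3, class 0, chr2:34728504-34728704: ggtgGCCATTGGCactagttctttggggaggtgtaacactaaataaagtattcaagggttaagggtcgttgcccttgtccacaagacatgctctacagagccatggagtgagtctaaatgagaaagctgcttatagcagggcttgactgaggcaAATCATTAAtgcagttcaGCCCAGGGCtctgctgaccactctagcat
distal peak nearest to SEC23A, class 0, chr7:61253827-61254027: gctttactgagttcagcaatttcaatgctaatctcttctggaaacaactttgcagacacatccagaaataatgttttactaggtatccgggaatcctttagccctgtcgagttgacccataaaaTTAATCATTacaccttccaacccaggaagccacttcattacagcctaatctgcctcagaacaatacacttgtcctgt
TSN promoter, class 5, chr15:29714051-29714251: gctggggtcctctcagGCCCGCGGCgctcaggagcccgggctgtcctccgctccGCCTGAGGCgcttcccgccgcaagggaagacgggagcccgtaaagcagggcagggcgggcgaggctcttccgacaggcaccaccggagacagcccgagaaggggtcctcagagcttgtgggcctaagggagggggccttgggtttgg

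The label was first checked against marker genes. PAX2 and LHX1, which encode transcription factors of the early nephron, had a promoter peak in kidney and in none of the 5 other newborn lists. UMOD, which encodes the uromodulin secreted by the thick ascending limb, had no promoter peak in any of the 6 lists. A promoter was taken as 2.2 kb before and 500 bp after any annotated transcription start site (TSS) of a protein-coding gene (PCG). The PAX2 promoter peak (chr14:111821097-111821325) had a −log10 p of 11.5 in replicate 1 and 33.1 in replicate 2, with an irreproducible discovery rate (IDR) of 0.0314. The LHX1 promoter peak (chr12:38449475-38449839) had values of 8.61 and 19.04 and an IDR of 0.105, so it stood above the usual limit of 0.05. The value was higher in replicate 2 for both promoters.

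Around UMOD, 3 kidney peaks were nearest to its TSSs, and all were class 0. The peak 2.74 kb upstream (chr3:25470095-25470712) had values of 14.8 and 12.3 and an IDR of 0.0436, and the others, in an exon of UMOD and in an exon of the neighbouring PDILT, had an IDR of 0.617. PAX2 was the nearest gene of 27 kidney peaks, of which 20 were class 0, 5 class 1 and 2 class 2, and none was shared by more tissues. The strongest of them lay in an intron, 24.5 kb from the TSS, with values of 24.9 in replicate 1 and 46.4 in replicate 2. LHX1 was nearest to 16 peaks, of which 14 were class 0, and none of those 14 had an IDR of 0.05 or lower. Its strongest peak, in class 1, was shared with liver and lay 67.1 kb upstream within an intron of another gene (41.9 and 77.4). That peak carried HNF1 letters centred 5 bp from its summit. The plot of the PAX2 region shows peaks on both sides of the TSS from 91.0 kb upstream to 79.9 kb downstream.

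**Figure D1:**
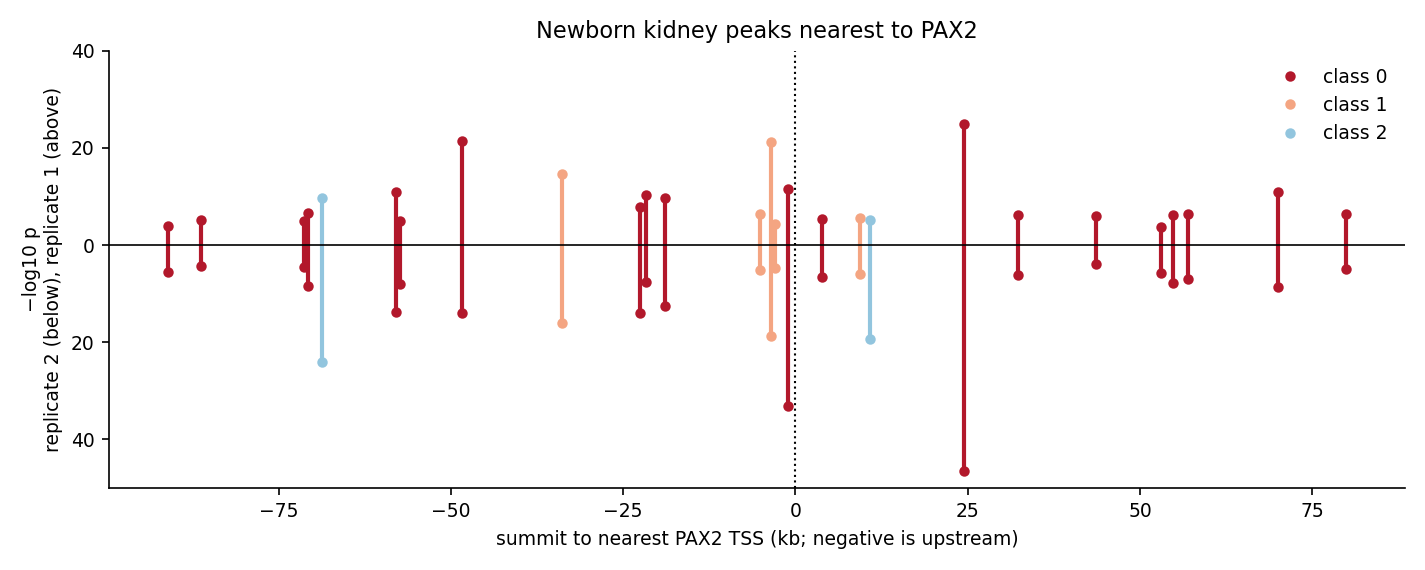
Kidney peaks whose nearest TSS belongs to PAX2, placed by the distance of the summit from that TSS (kb, negative is upstream); the line above 0 is the −log10 p of replicate 1 and the line below 0 that of replicate 2, and colours give the class. Of the 27 peaks, 20 are class 0, and the tallest lies 24.5 kb into the gene with 24.9 and 46.4.

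Private peaks formed the largest class of the kidney list, the classes shrank up to class 4, and class 5 was again larger. Class 0 made up 34.6% of the kidney list (Wilson 95% interval 34.3 to 34.9) and class 5 15.6% (15.4 to 15.8). These and later intervals cover counting error only, since each list pools 2 libraries. The same division of the other 5 lists gave a class 0 share between 17.5% in heart and 28.0% in liver, and a class 5 share between 17.4% in liver and 37.3% in muscle. The kidney list was the longest, against 54830 peaks in muscle and 115504 in liver on the same chromosomes, and its length moved with these shares. With the 54830 strongest peaks of every list, the kidney class 0 share was 26.3% with rank 5 among the 6 tissues, and the other shares ran from 21.6% to 31.6%. With an IDR limit of 0.05 on the kidney list alone, the class 0 share was 15.25%, the lowest of the 6 tissues, and with that limit on every list it was 52.3%, the highest. Between tissues no test was made, as 1 kidney list against 5 others could not give a permutation p below 0.167.

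Peaks of class 0 were also the least reproducible. An IDR of 0.05 or lower was reached by 14.95% of class 0 peaks (6632), 25.7% of class 1, 53.0% of class 4 and 76.2% of class 5 (15238). For class 0 the replicate medians of −log10 p were 6.30 and 6.94, and for class 5 they were 25.5 and 37.9. The replicate values of a peak were correlated with a Spearman's rho of 0.523 across class 0 peaks and 0.715 across class 5 peaks, which describes peaks of the same 2 libraries. Class 0 peaks were narrower, with a median width of 291 bp against 943 bp in class 5. Near the limits of the rule, 1077 class 0 peaks (2.43%) lay within 100 bp of a peak of another list, and 504 class 1 peaks (1.95%) were overlapped by fewer than 50 bp.

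**Figure D2:**
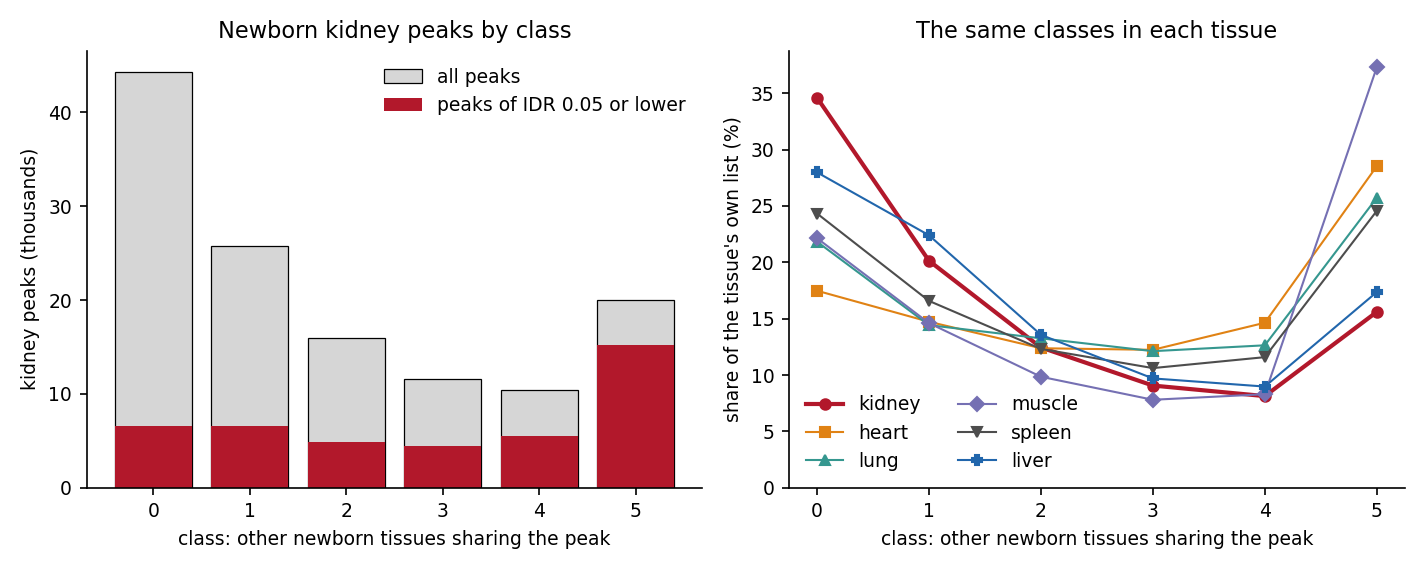
Left, number of kidney peaks (axis in units of 1000) in each class, from 0 (no other newborn list) to 5 (all other newborn lists), with the peaks of IDR 0.05 or lower in red; right, the share of each tissue's own list (%) in the same classes, 1 line per tissue. Class 0 holds 44353 kidney peaks, of which 6632 reach that IDR, and class 5 holds 20000, of which 15238 do.

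Distance to genes followed the classes in order. The median distance from summit to the nearest TSS was 48.1 kb in class 0 (95% interval 47.15 to 48.97), 33.7 kb in class 1, 28.8 kb in class 2, 24.5 kb in class 3, 19.2 kb in class 4 and 0.815 kb in class 5 (0.742 to 0.901). Promoters held 3.66% of class 0 peaks (3.49 to 3.84), 5.89% of class 1, 8.11% of class 2, 11.5% of class 3, 17.2% of class 4 and 53.2% of class 5 (52.5 to 53.9). With an IDR limit of 0.05 in every list the class 5 median was 0.0860 kb and the class 0 promoter share 9.06%, and with 50% of the peak covered the class 5 median was 0.379 kb. The rise was steepest at the last step, where a peak absent from a single tissue was compared with a peak in all of them. Introns held 45.3% of class 0 and 17.6% of class 5, and intergenic DNA 44.4% and 21.75%. Of class 0 peaks, 15.55% lay over 200 kb from any TSS, against 2.18% of class 5.

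The order held along the genome. On 18 of 18 autosomes class 5 had a higher promoter share and a shorter median distance than class 0, and on 17 autosomes the promoter share rose at every step from class 0 to class 5. The distance fell at every step on 15 autosomes. Class 0 made up from 29.25% of the kidney peaks on chromosome 12 to 39.66% on chromosome 11. Chromosome 12 had the shortest class 0 distance, at 23.1 kb, and 19.38 class 5 peaks per Mb, against 5.48 per Mb on chromosome 11.

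Private peaks of kidney and of heart stood farthest from genes. The kidney median of 48.1 kb and the heart median of 47.8 kb (46.3 to 49.4) overlapped in their intervals, and the liver median was shortest at 29.9 kb. The promoter share of private peaks was 3.66% in kidney, between 2.795% in heart and 4.56% in spleen. In class 5 the tissues hardly differed, as these peaks were largely the same sites: the promoter share ran from 53.1% in liver to 53.4% in heart, around 53.2% in kidney. The kidney distance came after heart and lung when an IDR of 0.05 or lower was asked of every list, at 32.5 kb, and after heart when the TSSs of all annotated genes were used, at 31.1 kb.

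**Figure D3:**
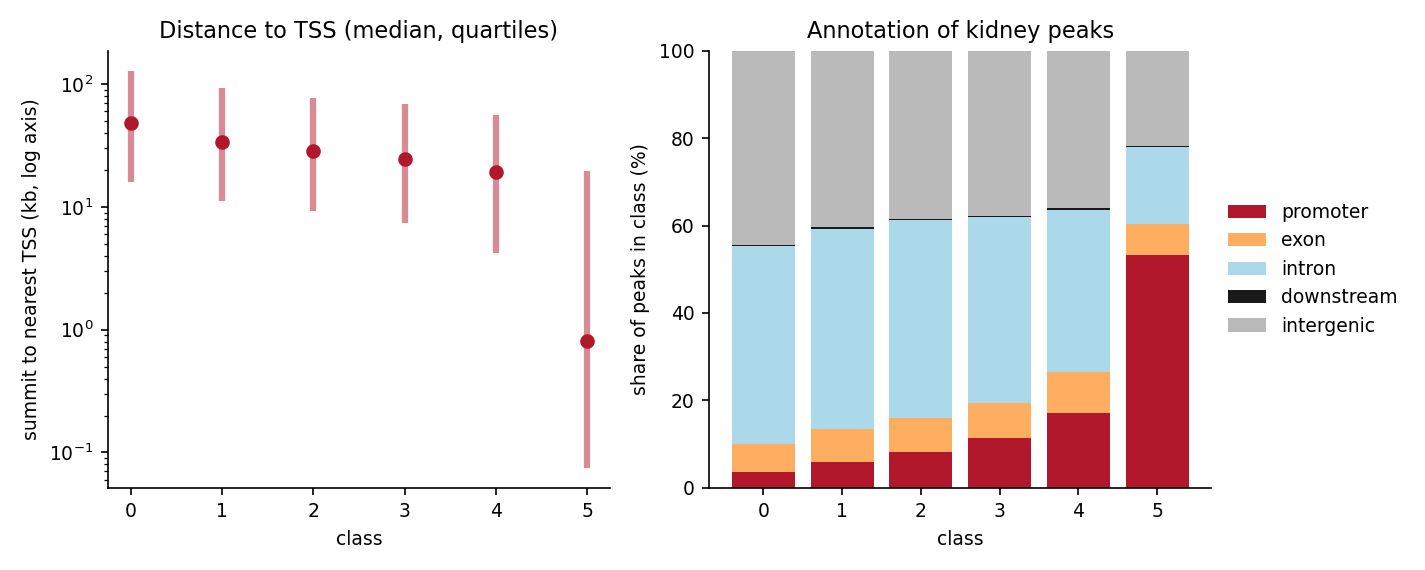
Left, distance from summit to the nearest TSS of a protein-coding gene (kb, log axis) for kidney peaks in each class, points at medians and bars over the interquartile range; right, share of each class (%) in promoters, exons, introns, 300 bp downstream of genes and intergenic DNA. The median falls from 48.1 kb in class 0 to 0.815 kb in class 5, and the promoter share rises from 3.66% to 53.2%.

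Base composition changed with the classes too. The median GC content within 100 bp of the summit was 52.2% in class 0 and 63.7% in class 5, and the observed to expected ratio of CpG was 0.240 and 0.675. Repeat-masked bases made up 13.7% of class 0 windows and 8.19% of class 5 windows on average. Class 5 had the higher GC content on 18 of 18 autosomes. Kidney class 0 peaks were the most GC-rich of the private peaks, as medians of the other tissues ran from 47.3% in lung and spleen to 49.75% in muscle.

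Peaks shared with a single other tissue were shared most often with liver, which also had the longest of the 5 other lists. Of the kidney peaks, 49.6% overlapped the liver list, 37.4% the lung, 35.95% the spleen, 34.7% the heart and 25.2% the muscle list. As shares of the partner lists the order was another: 63.3% of heart, 61.8% of lung, 59.35% of muscle, 56.4% of spleen and 55.2% of liver peaks overlapped the kidney list. Class 1 peaks were shared with liver in 13020 of 25817 cases (50.4%), with lung in 4406, spleen in 3700, heart in 2745 and muscle in 1946. Per 1000 peaks of the partner list this made 112.7 for liver, 56.9 for lung, 45.5 for spleen, 39.0 for heart and 35.5 for muscle, so liver led in class 1 also per peak of its list, while it was lowest of the 5 over all overlaps. With the 54830 strongest peaks of every list, liver still made up 41.2% of class 1, and lung was next at 19.7%. Muscle was the tissue most often missing from class 4, in 6394 of 10429 peaks (61.3%). Muscle also had the shortest list.

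Kidney peaks of every class also overlapped the later liver lists, and only liver had lists of later days. Class 0 peaks overlapped the liver list of day 28 in 14.0% of cases (13.7 to 14.4) and that of day 180 in 4.12% (3.94 to 4.31). Class 1 peaks did so in 48.7% and 32.6%, and class 5 peaks in 97.8% and 95.1%. Peaks of class 0 absent also from both later liver lists numbered 37158 (29.0% of the kidney list). Their promoter share was 3.42% and their median distance 50.96 kb.

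Genes were next described by the classes of the peaks in their promoters. Of 18725 PCGs on chromosomes 1 to 18, 75.8% had a kidney peak in a promoter, 58.1% had one of class 5 and 7.95% (1488) had one of class 0. Among the 1488, 981 (65.9%) also had a more shared peak in a promoter, and 657 had one of class 5. A class 0 promoter peak of IDR 0.05 or lower was found at 254 genes. Class 0 peaks were nearest to a TSS of 56.2% of PCGs, and those of IDR 0.05 or lower to 21.4%. A promoter peak in kidney and in none of the 5 other lists was found at 405 PCGs, or 2.16%.

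Genes of the kidney had such peaks more often than PCGs at large. The 6 kidney lists, drawn up from general knowledge with earlier results of these data known, matched all but 7 of 132 genes, and 36 of those matched (28.8%) had a class 0 promoter peak and 19 (15.2%) had a promoter peak in kidney alone. The 36 genes became 15 (12%, against 1.36% of PCGs) with an IDR limit of 0.05 in kidney and 23 (18.4%, against 3.28%) with lists of equal length. Class 5 promoter peaks went the other way, at 39 genes (31.2%) against 58.1% of PCGs. The median number of class 0 peaks nearest to a kidney gene was 4, and over all PCGs it was 1. Of the genes, 68 (54.4%) had a nearest class 0 peak of IDR 0.05 or lower. Kidney genes had a median length of 31.8 kb against 20.7 kb over all PCGs, and the part of gene length in these counts was not tested.

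Nephron progenitor and patterning genes had the highest share of class 0 among their nearest peaks of the 6 kidney lists, although only 3 of them had a class 0 promoter peak of IDR 0.05 or lower, against 5 of 23 proximal tubule and 5 of 21 loop and distal genes. Of 32 matched, 12 (37.5%, against 7.95% of PCGs) had a class 0 promoter peak. Of the 736 kidney peaks nearest to the 32 genes, 58.8% were class 0, against 34.6% of all kidney peaks. In the other 5 lists, peaks near the same genes were private in 20.3% in heart to 33.9% in lung. SALL1, a zinc finger factor of the progenitors, was nearest to 64 kidney peaks, of which 45 were class 0, 9 of them with an IDR of 0.05 or lower. POU3F3, a factor of the distal nephron, had 31 class 0 peaks of 39, and OSR1, an early marker of the nephric lineage, had 29 of 61. GDNF, the signal that draws out the ureteric bud, had 16 of 24, and its receptor RET had 9 of 16.

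HOXA11, HOXC11 and HOXD11 each had a promoter peak in kidney alone. All of these peaks had an IDR above 0.05, the lowest being 0.3665 at HOXA11, so the call at each was weak. Of the 36 HOX genes measured, 27 (75%) had a kidney promoter peak, close to the 75.8% of PCGs. A class 0 promoter peak was found at 12 (33.3%, against 7.95% of PCGs) and a class 5 promoter peak at 6 (16.7%, against 58.1%). Among the 15 of paralogue groups 9 to 13, 11 had a kidney promoter peak and none of class 5, while 6 had one in lung, 7 in liver and 3 each in heart, muscle and spleen. Among the 21 of groups 1 to 8 the numbers were 16 in kidney, 14 in liver, 13 in lung, 12 in spleen, 11 in muscle and 8 in heart. A promoter peak in kidney alone was found at 4 of the 36 HOX genes, against 2.16% of PCGs. These were the 3 above and HOXD10, and none was in groups 1 to 8. HOXD10 and the split by group were chosen after the values were seen.

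Some progenitor genes had promoters open in every tissue, though a smaller share than of PCGs at large. Of the 32 genes, 10 (31.25%, against 58.1% of PCGs) had a class 5 promoter peak, among them WNT4, GDNF, JAG1, ITGA8 and ROBO2. SIX2, a marker of nephron progenitors, had a promoter peak of class 4, missing in liver, and 8 class 0 peaks nearby. WT1, which acts in progenitors and podocytes, had 2 promoter peaks of class 3. The strongest class 0 promoter peaks of the list were those of SIM1, with values of 25.3 and 38.2, and EMX2, with 20.7 and 33.5, which encode transcription factors. SIM1 also had promoter peaks of class 2 and class 5, and EMX2 of class 1 and class 2. The class 0 promoter peak of EMX2 overlapped a later liver list. FGF8 and WNT11, secreted signals of nephron formation, had class 0 promoter peaks with IDRs of 0.617 and 0.0820. WNT11 also had a promoter peak of class 4.

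Of 17 podocyte genes matched, 5 (29.4%, against 7.95% of PCGs) had a class 0 promoter peak, among them NPHS1, SYNPO, PTPRO and MAGI2. MAGI2 also had promoter peaks of class 2 and class 5. A class 5 promoter peak was found at 10 (58.8%), close to the 58.1% of PCGs. NPHS1 encodes nephrin of the slit diaphragm and SYNPO an actin-binding protein of the foot process. The SYNPO peak (chr2:151571065-151571417), 31 bp from the TSS, had values of 14.1 and 34.9 and an IDR of 0.00878. The NPHS1 peak had values of 9.05 and 7.14 and an IDR of 0.279. Type IV collagen genes COL4A3 and COL4A4 and the adaptor CD2AP had promoter peaks in all 6 tissues.

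Of the proximal tubule genes, 5 had promoter peaks in kidney alone and 5 in kidney and liver only. The shares over all PCGs were 2.16% for kidney alone and 1.43% for kidney and liver only. Of 23 genes, 8 had a class 0 promoter peak and 3 one of class 5, against 7.95% and 58.1% of PCGs. SLC34A1, the phosphate carrier of the brush border, had its peak (chr2:80563201-80563960) 30 bp from the TSS, with values of 23.3 and 16.8. It held HNF4 letters, as the sequence above shows. SLC4A4, the bicarbonate carrier of the basolateral side, had the strongest, with values of 45.98 in replicate 1 and 62.05 in replicate 2, while SLC4A4 had 4 other promoter peaks, of which 1 was class 1, 2 were class 4 and 1 was class 5. SLC22A2, the organic cation carrier, had 11.9 and 22.5, and SLC22A12, the urate carrier, 13.6 and 36.9. CUBN, the receptor for filtered protein, had 2 class 0 promoter peaks with IDRs of 0.209 and 0.230 and no promoter peak in another tissue. SLC6A19, a carrier of neutral amino acids, also had a promoter peak in kidney alone, but that peak overlapped lists of other tissues outside the promoter and was class 2. SLC7A9, SLC13A3, MIOX and the factor HNF4A had promoter peaks in kidney and liver only. No promoter peak in any of the 6 lists was found at SLC5A2, SLC22A6, SLC22A8, SLC3A1, SLC2A9 or CYP27B1.

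Of the 21 loop of Henle and distal tubule genes, 6 (28.6%, against 7.95% of PCGs) had a class 0 promoter peak. A promoter peak in kidney alone was found at 3 (14.3%, against 2.16% of PCGs). Class 0 made up 53.3% of the 199 kidney peaks nearest to these genes, and the private share of the other lists near the same genes was between 20% in heart and 28.7% in liver. SLC12A1, the salt carrier of the thick ascending limb, had a promoter peak in kidney alone 12 bp from its TSS, with values of 17.4 and 19.9 and an IDR of 0.00573. CLDN19 and TRPV5, which act in magnesium and calcium recovery, also had promoter peaks in kidney alone, the strongest of them at TRPV5 with 32.4 and 23.45. CALB1 (calbindin), PVALB (parvalbumin) and BSND (barttin) had promoter peaks in kidney and liver only, and KCNJ1 and CLDN16 in kidney and lung only. Over all PCGs, 1.43% had promoter peaks in kidney and liver only and 0.587% in kidney and lung only. ESRRB was nearest to 21 class 0 peaks of 37. Its class 0 promoter peak had an IDR of 0.00391, the lowest that the score can show, and it also had a promoter peak in each of classes 1, 2 and 3.

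The collecting duct list was nearer to the average. Of 23 genes, 4 (17.4%) had a class 0 promoter peak and 8 (34.8%) one of class 5, against 7.95% and 58.1% of PCGs. Class 0 made up 35.5% of nearest peaks, against 34.6% of all kidney peaks. AQP2, the water channel moved by vasopressin, had promoter peaks in kidney alone, but both had an IDR of 0.617. Subunits of the sodium channel ENaC, SCNN1B and SCNN1G, had promoter peaks in kidney, lung and liver. FOXI1, which directs intercalated cells, had no promoter peak in the 6 lists and 5 class 0 peaks nearby. Among endocrine and interstitial genes, 1 of 9 had a class 0 promoter peak, namely PTH1R, the receptor for parathyroid hormone, with 15.6 and 23.9. EPO had no promoter peak in the 6 lists.

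**Figure D4:**
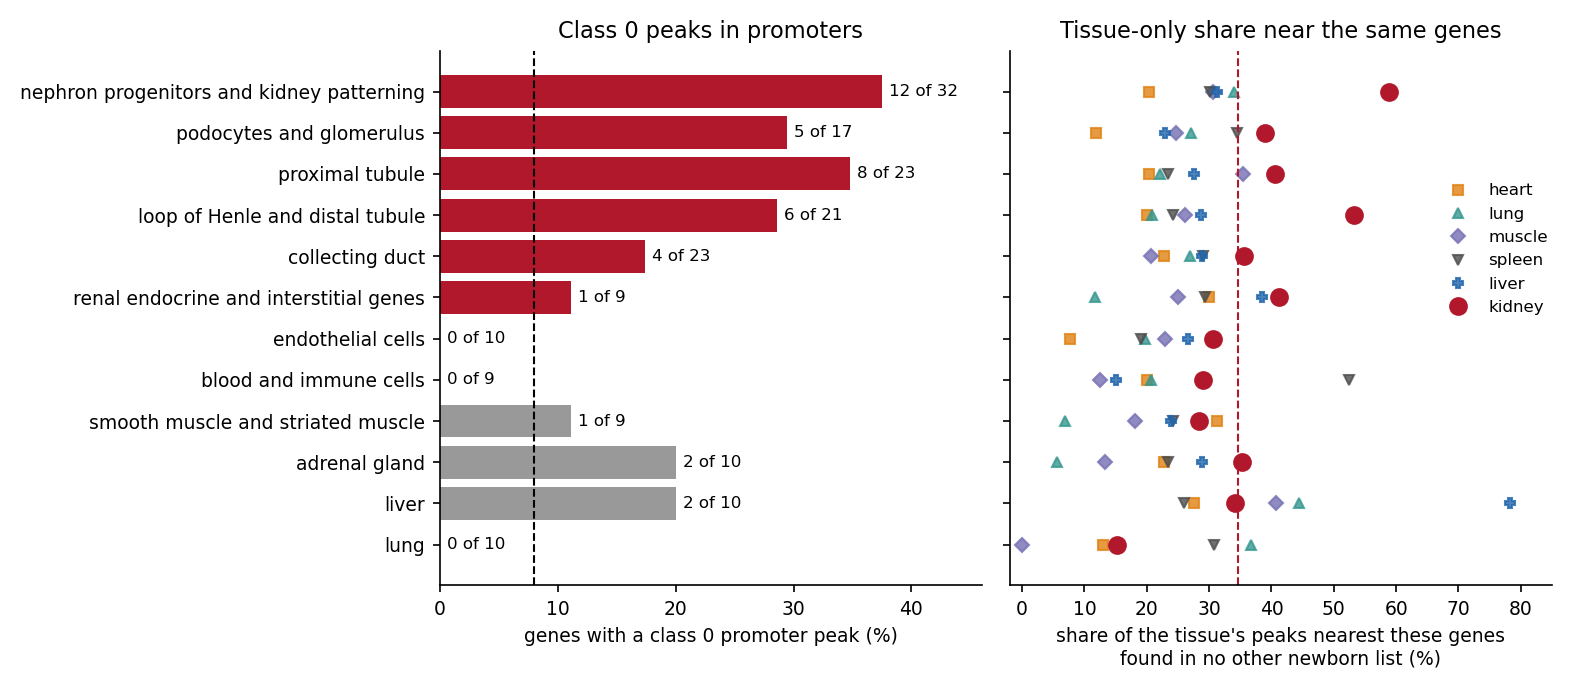
Left, share of the genes of each list (%) with a class 0 peak in a promoter, kidney lists in red and other lists in grey, with counts beside the bars and the share over all protein-coding genes (7.95%) as a dashed line; right, share (%) of each tissue's peaks nearest to the same genes that no other newborn list holds, with all kidney peaks (34.6%) as a dashed line. Kidney reaches 58.8% at the progenitor list, where the other tissues lie between 20.3% and 33.9%.

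Lists for other cells were read against the 7.95% of all PCGs with a class 0 promoter peak. None of 10 endothelial, 9 blood and immune or 10 lung genes had a class 0 promoter peak, while 1 of 9 muscle genes (MYOG), 2 of 10 adrenal genes (STAR and CYP11A1) and 2 of 10 liver genes (APOA1 and APOB) did. The adrenal and liver lists, at 20% each, thus stood above the collecting duct list, at 17.4%, and the endocrine and interstitial list, at 1 of 9. Each of these 5 genes also had a promoter peak in another list. Endothelial genes had a kidney promoter peak of some class in 9 of 10 cases, and blood genes in 3 of 9, against 75.8% of PCGs. Muscle genes had one in 8 of 9 cases, against 6 of 9 in muscle and in heart, and MYH7, TNNT2, MYOD1 and MYOG were among them. The kidney count was also the highest of these 3 over all 18725 PCGs, at 14198 in kidney, 12863 in heart and 11648 in muscle. Blood genes without one included PTPRC, CD3E and SPI1. The other tissues carried their own markers, with promoter peaks at 9 of 9 blood genes in spleen, 9 of 10 lung genes in lung and 8 of 10 liver genes in liver. The adrenal gland lies against the kidney, and adrenal genes had a kidney promoter peak in 4 of 10 cases. These were STAR, CYP11A1, HSD3B1 and CHGA. CYP17A1, MC2R, TH and DBH had no promoter peak in any of the 6 lists, and NR5A1 and PNMT had one in other lists only. The part of other cell types in the kidney peaks was not tested.

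Families of genes, chosen after the files had been opened, differed widely in class. Over all PCGs the shares were 7.95% for class 0 and 58.1% for class 5. Ribosomal protein genes had a class 5 promoter peak in 73 of 74 cases and a class 0 peak in 2, and proteasome subunits in 35 and 0 of 39. Solute carriers had a class 0 promoter peak in 48 of 335 cases (14.3%), claudins in 5 of 21 and potassium channels in 16 of 90. The 5 claudins and 48 solute carriers include members of the kidney lists. Collagens and laminins had one in 7 of 53 cases, FGF ligands and receptors in 1 of 26, and subunits of the V-type proton pump in 1 of 21. None of these counts was tested against the share over all PCGs.

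The 10 strongest class 0 promoter peaks lay at other genes than those of the lists, except for SLC4A4. At SST (somatostatin) the values were 54.2 and 70.7, at VSTM2A 51.5 and 74.3, at HECW1 48.1 and 53.5, and at RGS5, a regulator of G protein signalling, 49.0 and 46.85. GAP43, known from growing axons, had 46.4 and 51.2. NUP214, MAP7, CGNL1 (a protein of tight junctions) and SDK1 (a cell adhesion protein) completed the 10. The MAP7 peak lay 0.144 kb from a peak of another list and the NUP214 peak 0.981 kb. Of these peaks, 4, at SST, VSTM2A, RGS5 and CGNL1, overlapped a later liver list. All 10 had an IDR of 0.00391, which the score gives as its lowest.

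The strongest promoter peaks of the middle classes were mostly shared with liver, as were many peaks of these classes at large. Liver was the partner in 50.4% of class 1 peaks and was missing from 6.06% of class 4 peaks. The pattern of lung, spleen and liver made up 29.9% of class 3. In class 1 these were CALB1 (104.5 in replicate 1 and 114 in replicate 2), P2RX6 and SYT4, and each was shared with liver. In class 2, TMEM72 and MCCD1 were shared with heart and liver, and UNC13C with lung and spleen. CYP4A24, CACNG3 and PCSK2 led class 3, all shared with lung, spleen and liver. DRGX and ADGRV1 were among the leading promoters of class 4. Class 5 was led by LEPROT, TSN and EDEM3, at 225.4 or more in replicate 1 and 296 or more in replicate 2.

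Far from genes, the 5 strongest private peaks were higher in both replicates than any private promoter peak named above. The peak nearest to CRB2 (chr1:264393303-264393835), a polarity gene of podocytes, lay 116 kb from its TSS in an intron of DENND1A, with values of 84.75 and 121. It lay 0.440 kb from a peak of another list and overlapped a later liver list. The peak nearest to BMP4, a growth factor around the ureteric bud, lay 78.75 kb away in intergenic DNA, with values of 61.0 and 96.15. The other 3 were nearest to AMY2, TARS and NMBR, at 168, 102 and 761.5 kb, and all were intergenic.

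Some genes collected many private peaks. CELF4, an RNA-binding protein, was nearest to 12 class 0 peaks of IDR 0.05 or lower, NTM and TNP1 to 11, KLHL29 and SLC10A2 to 10, and CDH4, SALL1, NEDD1, DLGAP2 and NRXN3 to 9. The median PCG had 0 such peaks and the 99th percentile was 4. Some of these genes also collected private peaks of other tissues. Without an IDR limit, SALL1 was nearest to 45 private peaks of kidney and 24 of liver, and CELF4 to 34 and 15. SLC10A2 was nearest to 27 of kidney and 16 of lung. Of these 10 genes, SALL1 belonged to the kidney lists, SLC10A2 is a bile acid carrier also known from the kidney, and CDH4 encodes a cadherin. TNP1 spans 0.608 kb and NTM 1002 kb, so the nearest gene is a matter of position and does not say which gene a peak acts on.

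Some sequence letters at the summits differed in frequency between the private peaks of kidney and those of other tissues. Consensus letters of 16 factor families were searched in 201 bp around each summit, on both strands, and private peaks outside promoters were compared, of which kidney had 42728. HNF1, a factor of renal and hepatic epithelia, showed the clearest order: its letters were found in 2.45% of kidney class 0 peaks (2.31 to 2.60), 1.39% in liver, 0.856% in lung, 0.710% in spleen, 0.4765% in heart and 0.376% in muscle. Kidney was highest on 18 of 18 autosomes. It stayed first of the 6 tissues under each of the 7 other ways to set classes, with 2.35% to 4.89%. Of 45636 windows of the same length at TSSs of PCGs, 0.598% held HNF1 letters.

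Within the kidney list, HNF1 letters belonged to the less shared peaks. Outside promoters they occurred in 2.45% of class 0, 2.47% of class 1, 1.425% of class 2, 0.874% of class 3, 0.498% of class 4 and 0.2885% of class 5. Among peaks shared with liver alone they reached 3.69%, and among those shared with another single tissue 1.23%. They were more frequent in class 0 peaks of IDR 0.05 or lower, at 4.89%. HNF4, a partner in the same epithelia, showed 1.84% in kidney class 0, 2.97% in liver, 0.635% to 0.719% in the other tissues and 4.13% in peaks shared by kidney and liver alone.

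HNF1 letters were not more frequent near the kidney genes listed than in class 0 as a whole. Of the 869 class 0 peaks nearest to these genes, 15 held them, or 1.73% (1.05 to 2.83), against 2.40% (2.26 to 2.55) of all class 0 peaks. In the proximal tubule list 3 of 86 held them, a share of 3.49% with an interval of 1.19 to 9.76.

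Other letters were less distinctive of kidney or were rarer there than in other tissues. PAX letters (CANGCNTGA) were found in 3.10% of kidney class 0 peaks, against 1.94% in spleen to 2.82% in muscle, and TFAP2 letters in 11.4%, against 7.14% in spleen to 10.4% in muscle. Letters of SIX2 (GAAACNTGA), a factor of nephron progenitors whose relatives act in muscle, stood at 0.873% in kidney and 2.21% in muscle. As kidney windows were richest in GC, windows of 40 to 50% GC were compared: HNF1 letters then stood at 3.98% in kidney and 0.4435% to 1.53% elsewhere, PAX letters at 2.84% and 1.79% to 2.77%, and TFAP2 letters at 5.17% and 3.90% to 4.94%. Kidney class 0 was lowest of the 6 tissues for MEF2 (AAAAATAG), at 0.857% against 4.43% in heart, for AP1 (TGANTCA), at 6.64% against 14.1% in muscle, and for CEBP (TTGCNNAA), at 7.35% against 14.7% in liver. CTCF letters (CNAGGGGGC) stood at 1.34% (1.24 to 1.46) in kidney class 0 and 1.32% in liver, and rose to 6.04% in class 5 outside promoters. Letters of ESRR (TCAAGGTCA) and of the GATA factors known from blood and heart (AGATAAG) had rank 5 in kidney, the latter at 1.59% against 7.47% in heart. Those of SIX2, of the growth regulator TEAD (ACATTCC) and of the blood factor SPI1 (GAGGAAGT) had rank 4, the last at 1.47% against 6.17% in spleen. Those of GRHL, of the octamer factors POU (ATTTGCAT) and of the muscle factor MYOD (CAGCTG) had rank 3, the last at 19.1% against 30.3% in muscle, and HNF4 had rank 2. A match of letters is a description of sequence and not evidence of binding.

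**Figure D5:**
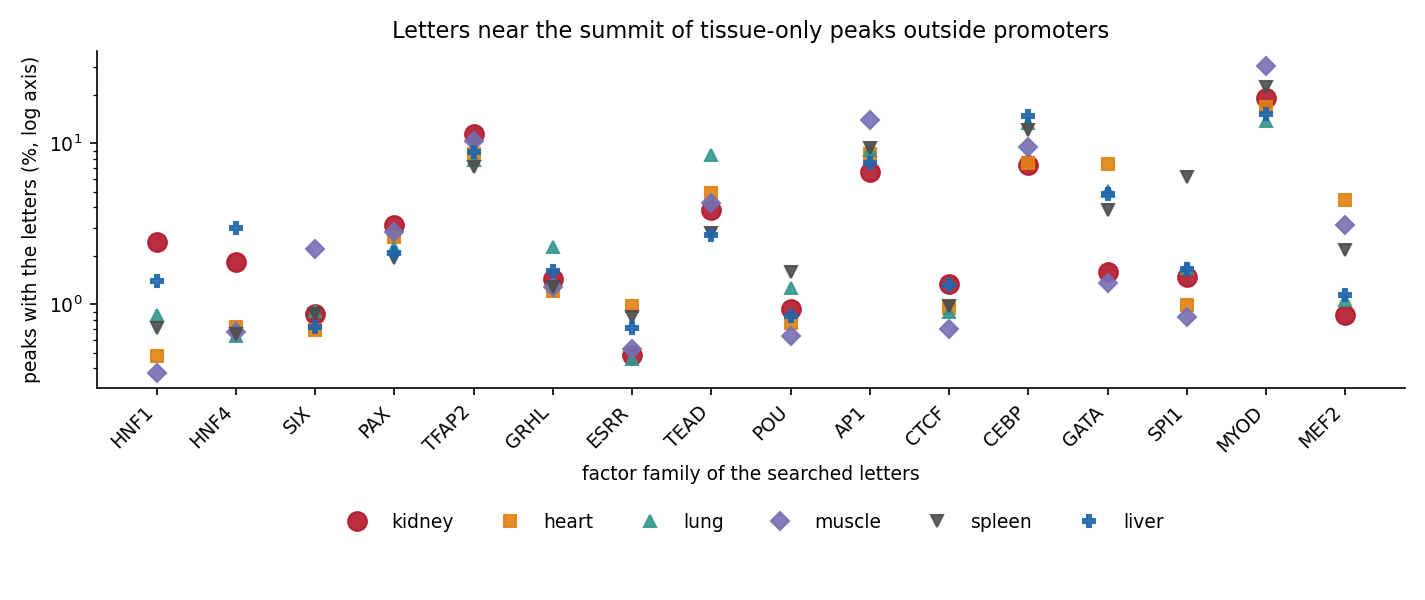
Share (%, log axis) of private peaks outside promoters whose summit window of 201 bp holds the consensus letters of each factor family, 1 symbol per tissue with kidney in large red circles. HNF1 letters reach 2.45% in kidney and 0.376% to 1.39% in the 5 other tissues.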

How the data were processed

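ATAC-seq peak lists of 8 groups (16 libraries, 2 in each group) of female crossbred pigs were used, with groups taken from the labels. The authors aligned reads with Bowtie2, filtered them with SAMtools 1.3.1, called peaks in each library with MACS2 and matched the replicates with the IDR tool. Each deposited interval spans the matched peaks of both replicates. The authors deposited the −log10 p of each replicate, which depends on depth and was used only to describe or rank peaks within a list. The authors' score expresses the IDR on a log scale, where 540 corresponds to 0.05 and the highest possible value, 1000, to 0.00391. The lists hold no read counts, so depth is unknown from them, library depths stated by the study were not used here, and a peak missing from a list was not called, which is no measure of closed DNA.

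Members, gene lists, families and motifs were chosen with earlier results of these data known, and the families after the files had been opened. Kidney peaks on chromosomes 1 to 18 were classed by 1 bp overlaps with Python 3.11.15, numpy 2.4.6, pandas 2.3.3 and scipy 1.17.1, and figures were drawn with matplotlib 3.10.9. Peaks on other chromosomes and scaffolds were left out. Genes and sequences came from RefSeq of Sscrofa11.1, the build of the lists, with 18725 PCGs and 45651 TSSs, and positions are counted from 1. Promoters went before exons, exons before introns, and introns before the 300 bp downstream of genes when a peak met several features, and the rest was intergenic. A peak was assigned to the gene with the nearest TSS to its summit. Of the kidney list genes, 7 were not used, PAX8, KIRREL1, SLC34A3, CITED1 and AVPR2 among them, nor were MYH6 and ALAS2 of the other lists. Named genes were, apart from some not reported here, list members, the 10 strongest class 0 promoter peaks, the 10 genes with most class 0 peaks of IDR 0.05 or lower, the 5 strongest class 0 peaks over 50 kb from a TSS and the 3 strongest promoter peaks of each other class, ranked by the lower replicate value. The letters of 16 motifs, given in the report, were searched on both strands of 201 bp windows, and matches of different motifs may overlap. Shares carry Wilson 95% intervals. No test was run over peaks or genes, which are not replicates. Scripts were tested on simulated data. Alternatives changed the overlap, the peak width, the IDR limit, the list length, the replicate, the promoter and the gene set.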

Additional observations from a re-analysis of the deposited data

How the results depend on the processing

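Class 5 had a higher promoter share and a shorter median distance to a TSS than class 0 under every alternative run, and the share of kidney list genes with a class 0 promoter peak stayed above that of all PCGs. Sizes moved, and of 72 alternative values 48 lay beyond the counting interval or a factor of 1.5. The values below give the share of peaks in class 0, the share in class 5, the promoter share of class 0, that of class 5, and the median distances of class 0 and class 5 in that order. With 50% of the kidney peak covered they were 39.3%, 12.2%, 4.15%, 59.2%, 45.97 kb and 0.379 kb. With summit windows of 200 bp they were 40.8%, 11.4%, 5.07%, 52.6%, 43.9 kb and 0.629 kb, and 2423 genes had a class 0 promoter peak. An IDR of 0.05 or lower in kidney alone gave 15.25%, 35.05%, 3.86%, 55.3%, 49.7 kb and 0.6025 kb, with 254 genes and 15 kidney list genes. The same limit in every list gave 52.3%, 6.92%, 9.06%, 82.5%, 32.5 kb and 0.0860 kb. An equal number of top peaks gave 26.3%, 18.35%, 4.39%, 58.3%, 45.8 kb and 0.3955 kb, with 614 genes and 23 kidney list genes. The narrower promoter, from 1 kb upstream to 100 bp downstream, gave promoter shares of 2.15% and 49.97% and 895 genes, and TSSs of all annotated genes gave 5.09% and 55.96% with medians of 31.1 and 0.617 kb.

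With the intervals of a single replicate, class 0 held 35.5% to 36.2% of the peaks and class 5 15.37% to 15.49%, and the class 0 median was 46.9 to 47.5 kb. HNF1 letters, whose alternatives were chosen after seeing the data, stood at 2.35% to 4.89% of class 0 peaks outside promoters. The causes of these shifts were not tested. No paired analysis was possible because no result came from a test and the lists hold only peaks matched in both replicates. The lists give no depth, so a class 0 peak may be a site that was open but not called elsewhere, and 23.6% of class 0 peaks lay within 1 kb of a peak of another list.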
